A study of Mus musculus with 6 samples.

Results

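The genes described here belong to the Hippo pathway and its transcriptional arm in biliary epithelial cells, the cells that line the bile ducts of the liver. They are the coactivators Yap1 and Wwtr1 (which encodes TAZ), the transcription factors Tead1, Tead2 and Tead3, the kinases Lats1 and Lats2, and Amotl2, Ankrd1 and Ajuba, listed with them as genes that respond to YAP. They were chosen by name, and all 10 were found among the 21700 genes of the deposited table. The cells came from wild-type female C57BL/6 mice, either non-pregnant (3 libraries) or pregnant at 8 days post coitum (dpc8, 3 libraries), and no other treatment is named for either group. Livers were perfused and digested, hepatocytes were spun out, and biliary cells were sorted by flow cytometry, with libraries made from total RNA after removal of ribosomal RNA. The sources used here give no age for the mice, no sorting antibodies and no word on pooling of animals. Whether the 3 libraries of a group come from different mice is not stated. The p-values therefore measure the spread among these libraries, which may be technical.

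Hippo signalling is a kinase cascade that restrains growth. The MST kinases (Stk4 and Stk3) with the scaffold Sav1 activate LATS1 and LATS2, and these phosphorylate YAP and TAZ, which then stay in the cytoplasm or are degraded. Without that phosphorylation, YAP and TAZ enter the nucleus and act through the TEAD proteins, which bind DNA. In the liver, YAP is known to be abundant in bile duct cells and to favour a biliary over a hepatocyte identity. RNA levels measure how much transcript each gene gave, not whether YAP is phosphorylated or nuclear.

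TEAD proteins recognise a short core, GGAATG, or CATTCC when read on the other strand. RefSeq promoter windows on GRCm38.p6 (250 bases before to 50 after a gene's start) were found for 9 of the 10 genes, all but Tead1. The core stood on either strand in at least 1 window of 7 of these 9 genes, against 16.6% of all 27025 genes with a window and 14.3% of the 9075 of them that were tested below. It stood in 6 of 20 other Hippo pathway genes (30.0%) and in 7 of 15 genes of the YAP and TEAD target list used below (46.7%), a list that shares members with the 10. Genes with several start sites have several, partly overlapping windows. Counted by window, 9 of 13 held the core, against 14.7% of all 32851. The windows of Tead2 and Lats1 held none. In Yap1 the core began at position -141 from the start and in Wwtr1 at -136 or -170, depending on the start used. In Tead3, 2 of 3 windows held it, 1 of them at 3 positions (-123, -114 and 3). In Lats2 it began at position 5, past the start, in 1 of 2 windows. A match is a description of letters and does not show binding.

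The 250 bases before the start are shown for Ankrd1, Amotl2 and Ajuba, the members with the largest differences between the groups, and for Ccn1, the most abundant gene of the target list used below. Capitals mark the core on either strand, which begins at positions -210 and -123 in Ankrd1, -65 in Amotl2, -186 and -164 in Ajuba and -103 in Ccn1. They lie at chr19:36119845-36120094 (minus strand), chr9:102717554-102717803 (plus), chr14:54577662-54577911 (minus) and chr3:145649986-145650235 (minus), in that order.
Ankrd1: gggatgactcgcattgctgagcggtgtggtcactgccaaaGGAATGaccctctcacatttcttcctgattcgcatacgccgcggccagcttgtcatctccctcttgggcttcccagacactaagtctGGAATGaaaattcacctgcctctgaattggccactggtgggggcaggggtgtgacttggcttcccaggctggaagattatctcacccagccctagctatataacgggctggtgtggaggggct
Amotl2: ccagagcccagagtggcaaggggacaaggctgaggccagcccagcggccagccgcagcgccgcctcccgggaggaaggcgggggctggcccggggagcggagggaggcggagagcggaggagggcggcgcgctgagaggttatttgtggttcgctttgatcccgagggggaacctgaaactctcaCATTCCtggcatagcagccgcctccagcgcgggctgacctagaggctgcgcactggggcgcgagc
Ajuba: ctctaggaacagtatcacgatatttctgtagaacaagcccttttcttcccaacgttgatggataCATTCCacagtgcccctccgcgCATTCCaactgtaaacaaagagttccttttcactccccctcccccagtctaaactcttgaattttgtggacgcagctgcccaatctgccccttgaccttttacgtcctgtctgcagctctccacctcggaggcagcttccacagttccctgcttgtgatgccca
Ccn1: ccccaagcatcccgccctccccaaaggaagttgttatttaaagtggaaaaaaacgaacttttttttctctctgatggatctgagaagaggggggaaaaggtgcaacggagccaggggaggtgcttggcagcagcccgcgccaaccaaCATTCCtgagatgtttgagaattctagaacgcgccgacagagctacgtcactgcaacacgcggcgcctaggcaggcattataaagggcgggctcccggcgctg

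Values are FPKM, fragments per kilobase of exon scaled to a size for each library, so levels can be compared between genes. A further median-of-ratios scaling (by each library's median ratio to the gene means) left the fitted log2 changes as they were. The values therefore already stood on that scale between libraries. From the smallest step between values, the size used to scale each library lay between 25312113 and 35213525 fragments. The fragments recovered as whole numbers summed to between 24448312 and 34285323 per library. The biliary markers Sox9, Krt19, Epcam and Spp1 stood between 182 and 5941 FPKM in all 6 libraries. Some libraries carried transcripts of other liver cells. The summed level of 9 Kupffer cell (liver macrophage) markers was 1.94 to 7.75 FPKM in non-pregnant and 34.9 to 94.6 FPKM in pregnant libraries. Of the 9, 7 were tested. All 7 were higher in each pregnant library than in each non-pregnant one, as were 9.9% of all genes tested. In the limma test used below, 3 of these markers passed, where 7 genes of the whole table passed as higher in pregnancy. Apart from C1qb (1.04 FPKM), the tested markers averaged 0.200 to 0.962 FPKM in non-pregnant libraries. They reached the mean of 1 FPKM needed for testing only through the pregnant libraries, so neither count can serve as a test of these markers. The summed level of 8 endothelial markers was 216 FPKM in non-pregnant library 2 and 17.7 to 32.0 FPKM in the other 5. For 7 hepatocyte markers it was 2357 to 2992 FPKM, most of it Alb, for 8 stellate and fibroblast markers 36.7 to 42.6 FPKM, with Lrat at 0.140 to 0.229 FPKM, for 5 mesothelial markers 6.25 to 14.0 FPKM, and for 5 lymphocyte markers 1.52 to 2.93 FPKM. No marker stood at 0 in all 6 libraries. The pregnant libraries resembled each other more (Spearman correlation across genes from 0.991 to 0.995) than the non-pregnant ones did (0.956 to 0.979). In a bulk sample, fewer cells of a type and less RNA per cell cannot be told apart.

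The mean level of 7 of the 10 members was higher in pregnancy, and no difference passed the test. The coactivators, the TEAD factors and the LATS kinases differed between the groups by at most 0.15 on the log2 scale, while the log2 changes of Ankrd1, Ajuba and Amotl2 were 0.94, 0.31 and 0.27. No test compared the roles, and Lats2, a kinase that is also a YAP target, was at -0.0014. None of the 10 passed the test across the 11412 genes whose mean reached 1 FPKM (limma on log2(FPKM + 1), Benjamini-Hochberg adjusted p from 0.301 to 0.995), where 0.0876% of all genes did (0.0613% higher and 0.0263% lower in pregnancy). At an unadjusted p under 0.05 there were 3 of the 10, all higher in pregnancy, against 13.4% of all genes tested (7.09% higher, 6.3% lower). With limma-voom on fragments recovered from the FPKM, 0 passed, as against 0.00889% of all genes, and 3 had an unadjusted p under 0.05. Fold intervals from the fit are on the log2(FPKM + 1) scale, which understates the change of genes with low values, while ratios of means are on the FPKM scale. The median log2 change of the 10 was 0.10, beside -0.02 for all genes tested, and 7 of the 10 were above 0, as were 44.8% of all genes. Without non-pregnant library 3 the median of the 10 was 0.03.

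**Figure D1:**
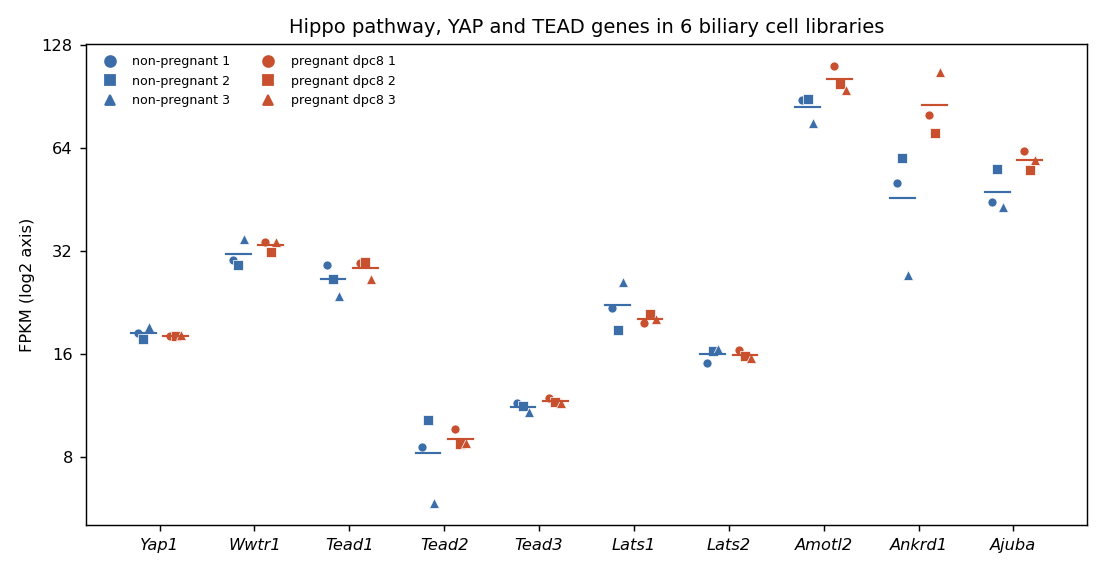
FPKM (log2 axis) of the 10 genes in each library; blue marks non-pregnant and red pregnant dpc8 libraries, the marker shape gives the replicate number, and short lines are group means (n = 3). Amotl2 and Ankrd1 are the genes whose groups do not overlap, and non-pregnant library 3 (blue triangle) is an extreme of every gene.

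Of the coactivators, Wwtr1 had the higher level per length (FPKM) in every library, while Yap1, the longer transcript, gave 50.7% to 54.3% of the fragments of both. On mm10 with GENCODE annotation, Yap1 lies on chromosome 9 (7931999 to 8004596, minus strand) and Wwtr1 on chromosome 3 (57455649 to 57575910, minus strand). Yap1 stood at 18.5, 17.7 and 19.2 FPKM across non-pregnant libraries versus 18.1, 18.1 and 18.2 FPKM across pregnant ones. The pregnant values lay inside the range of the non-pregnant ones. The group means were 18.4 ± 0.772 and 18.1 ± 0.0497 FPKM (SD, n = 3 each), with a log2 change of -0.02 (SE 0.067, adjusted p = 0.884 by limma) and a 95% interval from 0.883-fold to 1.097-fold. The sign of so small a change turned with upper-quartile scaling and quantile normalisation. The pregnant libraries differed by 0.274% (coefficient of variation), less than the counting error of 1.47% that their 4262 to 5177 fragments give. Wwtr1 stood at 30.1, 29.2 and 34.7 FPKM across non-pregnant libraries versus 34.0, 31.8 and 34.0 FPKM across pregnant ones. The groups overlapped, with a log2 change of 0.09 (SE 0.087, adjusted p = 0.641 by limma) and a 95% interval from 0.925-fold to 1.22-fold. Yap1 made up 38.0%, 37.7% and 35.6% of the summed level of both genes in non-pregnant and 34.7%, 36.3% and 34.9% in pregnant libraries. The difference of -1.84 percentage points did not pass a two-sided exact permutation test (p = 0.2, where 0.1 is the smallest p that 3 against 3 libraries allow).

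The TEAD genes are spread over the genome, with Tead1 and Tead2 on the plus strand of chromosome 7 (112679318 to 112906807 and 45215753 to 45233644) and Tead3 on the minus strand of chromosome 17 (28331671 to 28350817). Tead1 was the most abundant. It stood at 29.2, 26.5 and 23.7 FPKM across non-pregnant libraries versus 29.4, 29.8 and 26.5 FPKM across pregnant ones (log2 change 0.11, SE 0.095, adjusted p = 0.594 by limma). Tead3 stood at 11.5, 11.3 and 10.8 against 11.9, 11.6 and 11.5 FPKM (log2 change 0.05, SE 0.067, adjusted p = 0.709 by limma). In both genes the groups overlapped, for Tead3 by a narrow margin. Tead2 had the widest spread of the coactivators, TEAD factors and kinases, at 8.56, 10.2 and 5.87 FPKM across non-pregnant libraries versus 9.68, 8.73 and 8.77 FPKM across pregnant ones. All 3 pregnant values lay between the non-pregnant ones, and its log2 change of 0.15 (SE 0.166, adjusted p = 0.674 by limma) became -0.04 without non-pregnant library 3. Tead4, the remaining TEAD gene and not one of the 10, stood at 8.64, 9.48 and 7.14 against 9.86, 7.63 and 8.49 FPKM. Its level was close to that of Tead2, and its groups overlapped. Tead1 supplied 48.8% ± 2.36 of the summed TEAD level in non-pregnant and 49.3% ± 1.997 in pregnant libraries (SD, n = 3 each; exact permutation p = 0.9). Tead2, Tead3 and Tead4 supplied 15.0%, 20.7% and 15.5% on average without pregnancy, against 15.6%, 20.1% and 14.9% with it. The summed TEAD level was 47.5 FPKM in non-pregnant library 3 and 55.3 to 60.9 FPKM in the other 5 libraries.

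**Figure D2:**
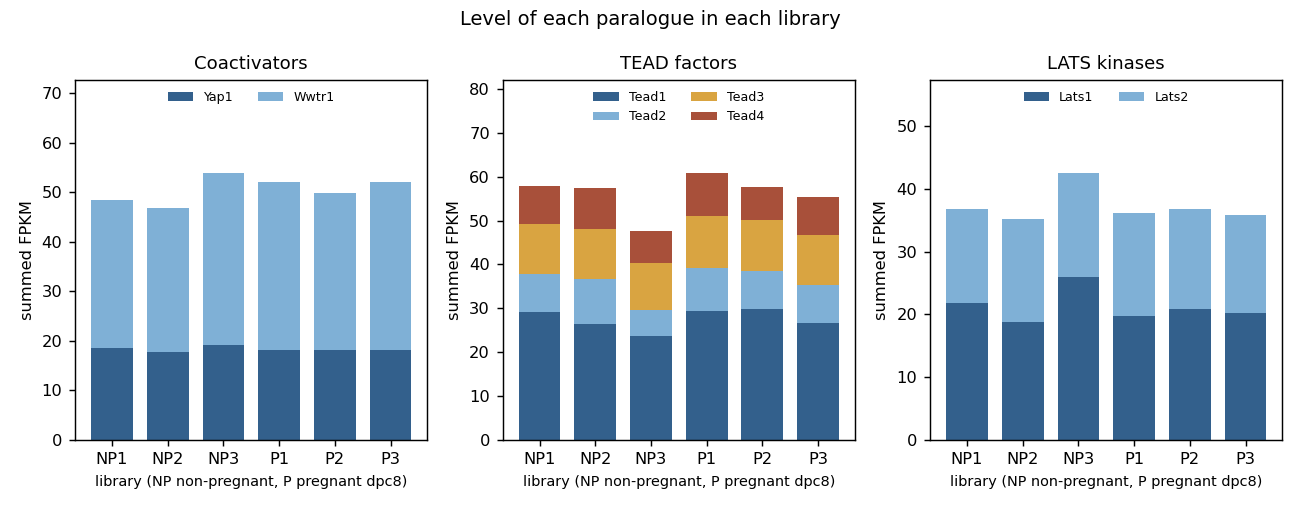
Stacked bars of FPKM for the coactivators, the TEAD factors and the LATS kinases in each library (NP1 to NP3 non-pregnant, P1 to P3 pregnant dpc8). Tead1 is the largest part of the TEAD level in all 6 libraries, and NP3 has the lowest TEAD sum (47.5 FPKM) and the highest sums of the coactivators (53.9 FPKM) and the kinases (42.6 FPKM).

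The kinases that restrain YAP did not differ between the groups beyond their spread. Lats1 lies on chromosome 10 (7681214 to 7716460, plus strand) and Lats2 on chromosome 14 (57689662 to 57758388, minus strand). Lats1 stood at 21.8, 18.9 and 26.0 FPKM across non-pregnant libraries versus 19.7, 20.9 and 20.2 FPKM across pregnant ones. The pregnant values again lay within the non-pregnant range (log2 change -0.11, SE 0.113, adjusted p = 0.644 by limma; 95% interval from 0.770-fold to 1.11-fold). Without non-pregnant library 3 the log2 change of Lats1 was 0. Lats2, which is both a kinase of the pathway and a transcriptional target of YAP, stood at 15.1, 16.3 and 16.5 against 16.4, 15.8 and 15.6 FPKM. Its log2 change was -0.0014 (SE 0.071, adjusted p = 0.995 by limma), with a 95% interval from 0.892-fold to 1.12-fold and a sign that turned under several settings. Lats2 supplied 42.0% ± 3.87 of the summed level of both kinases in non-pregnant and 44.0% ± 1.26 in pregnant libraries (SD, n = 3 each; exact permutation p = 0.5).

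Of Ankrd1, Amotl2 and Ajuba, all with a higher mean in pregnancy and none past the test, Ankrd1 had the largest difference. Ankrd1 (chromosome 19, 36111961 to 36120099, minus strand) encodes a muscle ankyrin repeat protein and is among the most widely used readouts of YAP. It stood at 50.5, 59.7 and 27.2 FPKM across non-pregnant libraries versus 79.9, 70.6 and 106.8 FPKM across pregnant ones. Every pregnant library was above every non-pregnant one, as was the case for 9.9% of all genes tested (12.2% lay the other way, 22.1% in either direction). The means of 45.8 ± 16.8 and 85.8 ± 18.8 FPKM (SD, n = 3 each) gave a ratio of 1.87. The log2 change was 0.94 (SE 0.281, adjusted p = 0.301 by limma), with a 95% interval from 1.22-fold to 3.02-fold. Without non-pregnant library 3, the lowest of the 6, the log2 change was 0.61 (limma adjusted p = 0.301), a smaller value in the same direction. The summed level of 8 biliary markers likewise did not overlap between the groups. It was 5257 to 6621 FPKM in non-pregnant and 7099 to 7603 FPKM in pregnant libraries. Of the 8, 0 were past the limma threshold. At an unadjusted p under 0.05, 2 were higher, as were 7.09% of all genes tested. The part of this summed level in the Ankrd1 level was not tested.

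Amotl2 (chromosome 9, 102716672 to 102733418, plus strand) encodes an angiomotin family scaffold that binds YAP and is also a YAP target. As the most abundant member, it stood at 88.3, 89.0 and 75.7 FPKM across non-pregnant libraries versus 111.3, 98.8 and 94.6 FPKM across pregnant ones. Its groups did not overlap either, so 2 of the 10 members were higher in all 3 pregnant libraries and 0 were lower. Over all genes tested, 9.9% were higher in this way, 12.2% lower and 22.1% either. The means of 84.4 ± 7.46 and 101.6 ± 8.72 FPKM (SD, n = 3 each) differed by 20.4%, with a log2 change of 0.27 (SE 0.102, adjusted p = 0.348 by limma). Ajuba (chromosome 14, 54567472 to 54577558, minus strand) encodes a LIM domain protein that binds LATS kinases. It stood at 44.6, 55.6 and 43.1 FPKM across non-pregnant libraries versus 62.8, 55.2 and 59.1 FPKM across pregnant ones. Non-pregnant library 2 lay just above pregnant library 2, so the groups overlapped, and the log2 change was 0.31 (SE 0.111, adjusted p = 0.330 by limma). When limma weighted the libraries by their estimated quality, Ankrd1 and Ajuba passed (limma adjusted p of 0.0264 and 0.0244), as did 11.4% of all genes tested, and Amotl2 did not (0.0736).

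**Figure D3:**
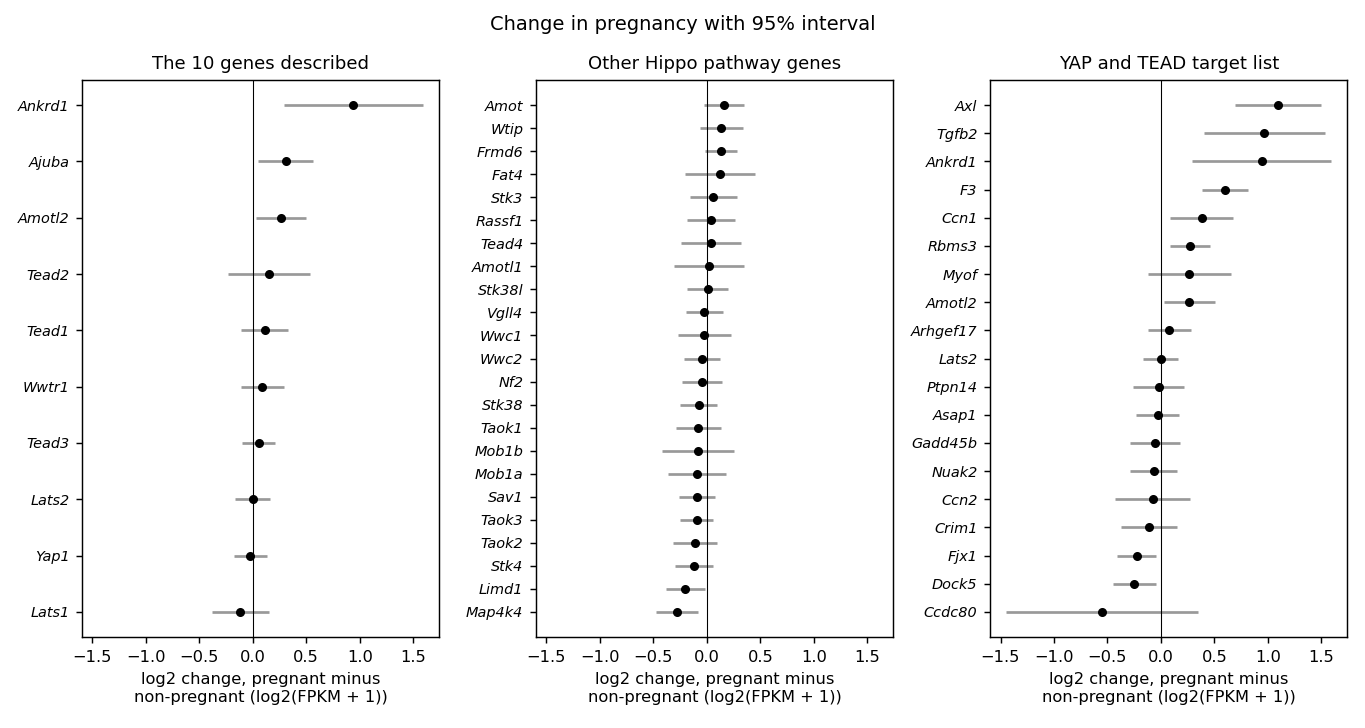
Log2 change (pregnant minus non-pregnant, on the log2(FPKM + 1) scale) with its 95% interval for the 10 genes, 23 other Hippo pathway genes and 19 genes of a YAP and TEAD target list, sorted within each panel. The other pathway genes run from -0.28 (Map4k4) to 0.16 (Amot) and the target list from -0.55 (Ccdc80) to 1.09 (Axl). Ccdc80 stood at 3.79 FPKM in non-pregnant library 2 and at 0.455 to 0.784 FPKM in the other libraries.

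Non-pregnant library 3 was an extreme of all 10 members, and its description carries another number than its title, which was used here. It gave the highest value of Yap1, Wwtr1, Lats1 and Lats2 and the lowest value of Tead1, Tead2, Tead3, Amotl2, Ankrd1 and Ajuba. Over all genes tested, this library was the highest for 35.8%, the lowest for 28.5% and an extreme for 64.2%. The coactivators and kinases were at the top of their range where the TEAD factors, Amotl2, Ankrd1 and Ajuba were at the bottom. This was seen in 1 library, and biliary markers were low there as well: 5 of 8, Krt19 and Spp1 among them, had their lowest value in it. The part of cell make-up or RNA quality in this pattern was not tested.

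The members also differed in their spread within a group, measured on 3 libraries each. Among all genes tested, the within-group SD of Tead3 stood at the 1.52 percentile, that of Yap1 at the 2.96 percentile and that of Lats2 at the 7.14 percentile. Ankrd1 and Tead2 stood at the 97.9 and 91.1 percentiles. The other 5 members lay between the 35.3 and 69.9 percentiles. Counting error was at most 2.89% for a group's mean fragment number (Tead2). The spread of Ankrd1 (coefficient of variation 36.6% and 21.9%) and of Tead2 in non-pregnant libraries (26.8%) was far above it. Among pregnant libraries, Tead3 (1.68%) and Yap1 (0.274%) varied less than their counting errors (2.15% and 1.47%). Among non-pregnant ones they varied more (3.24% and 4.19%, against 2.06% and 1.365%). In level (mean FPKM, a per-length scale), the order over all 6 libraries was Amotl2, Ankrd1, Ajuba, Wwtr1, Tead1, Lats1, Yap1, Lats2, Tead3 and Tead2, from 93.0 to 8.64 FPKM. Along this order, the values of neighbours overlapped between libraries for 5 of 9 pairs. The gaps without overlap were Ajuba over Wwtr1, Yap1 over Lats2, Lats2 over Tead3 and Tead3 over Tead2.

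**Figure D4:**
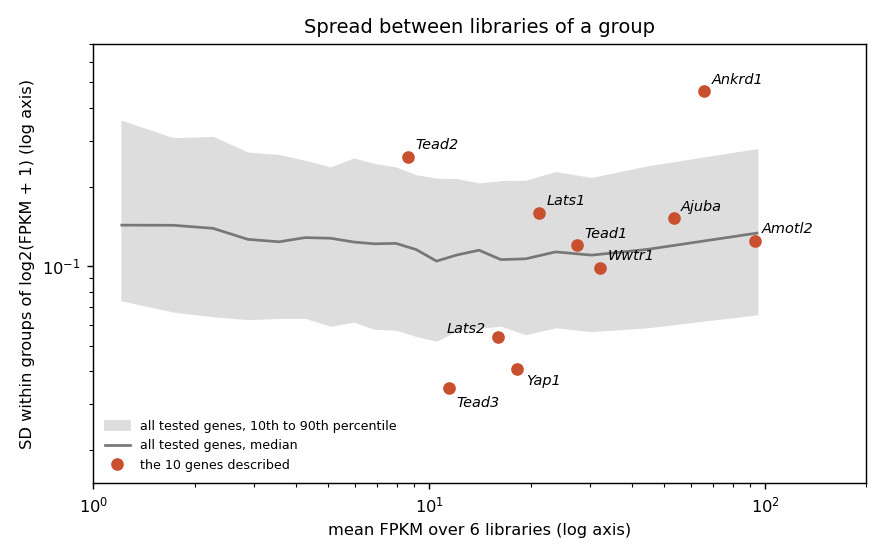
Within-group SD of log2(FPKM + 1) against mean FPKM, both on log axes; the grey band is the 10th to 90th percentile and the grey line the median of all tested genes at that level, and red points are the 10 genes. Tead3, Yap1 and Lats2 lie below the lower edge of the band, and Ankrd1 and Tead2 lie above its upper edge.

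Log2 changes of the other genes of the pathway ran from -0.28 (Map4k4) to 0.16 (Amot). Of 25 other Hippo pathway genes 23 were tested (Dchs1 and Vgll3 were too low), and 0 passed in either direction with limma or with limma-voom. At an unadjusted p under 0.05 limma gave 0 higher and 2 lower, against 7.09% and 6.3% of all genes tested. Their median log2 change was -0.05, 15 of 23 lay within 0.1 of 0 (45.7% of all genes did), and the groups did not overlap for 6 of 23, with 2 higher and 4 lower, against 22.1% of all genes. Among the genes upstream of LATS, Stk4 stood at 12.4 ± 0.854 and 11.4 ± 0.473 FPKM, Stk3 at 3.70 ± 0.414 and 3.89 ± 0.244 FPKM, Sav1 at 9.78 ± 0.301 and 9.13 ± 0.542 FPKM and Nf2, the tumour suppressor Merlin, at 16.0 ± 1.24 and 15.4 ± 0.632 FPKM (non-pregnant and pregnant, SD, n = 3 each). The smallest p belonged to Map4k4, a kinase that can activate LATS in parallel to the MST kinases. It stood at 31.9, 28.4 and 31.7 FPKM across non-pregnant libraries versus 25.2, 26.8 and 23.2 FPKM across pregnant ones (log2 change -0.28, SE 0.085, adjusted p = 0.301 by limma). The LIM domain protein gene Limd1, a relative of Ajuba, had a log2 change of -0.20 (limma adjusted p = 0.357), opposite in sign to Ajuba. Amot, a relative of Amotl2, and Frmd6, a FERM domain protein of the upstream pathway, had log2 changes of 0.16 and 0.13 (limma adjusted p of 0.408 and 0.414).

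The target list was split between genes higher and lower in pregnancy. It holds 22 genes used as a YAP and TEAD signature, 3 of them members (Amotl2, Lats2 and Ankrd1), and 19 were tested. The median log2 change was 0.00, with 9 above and 10 below 0, where 44.8% of all genes tested were above 0. With limma and with limma-voom 0 passed. At an unadjusted p under 0.05 in limma, 7 were higher and 2 lower, against 7.09% and 6.3% of all genes tested. The groups did not overlap for 9 of 19, 7 higher and 2 lower, against 22.1% of all genes. The 7 higher were Axl, Tgfb2, Ankrd1, F3, Ccn1, Rbms3 and Amotl2. Of these, Axl reached the mean needed for testing only through the pregnant libraries. The 2 lower, Dock5 and Fjx1, are named after their values were seen, with log2 changes of -0.25 and -0.23 (limma adjusted p of 0.319 and 0.322). Of the 19 genes, 10 had their lowest value in non-pregnant library 3, as did 28.5% of all genes tested.

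F3, which encodes tissue factor, the starter of blood coagulation, had the smallest p of the list. It stood at 27.8, 27.6 and 25.6 FPKM across non-pregnant libraries versus 40.7, 37.4 and 46.2 FPKM across pregnant ones, 1.53 times as high on average (log2 change 0.595, SE 0.093, adjusted p = 0.124 by limma). The gap between the groups was wider than the spread within either. Tgfb2, a ligand of the TGF-beta family, stood at 8.71, 12.4 and 5.65 against 15.1, 16.7 and 21.7 FPKM, so the mean was 1.999 times as high (log2 change 0.97, SE 0.245, adjusted p = 0.290 by limma). Rbms3, an RNA-binding protein gene, stood at 15.6 ± 1.28 and 19.0 ± 0.353 FPKM (SD, n = 3 each; limma adjusted p = 0.298). Axl, a receptor tyrosine kinase that macrophages and endothelial cells also express, stood at 0.659, 0.775 and 0.468 FPKM across non-pregnant libraries versus 3.43, 2.42 and 1.78 FPKM across pregnant ones (log2 change 1.09, SE 0.175, adjusted p = 0.124 by limma). The ratio of its means was 4.01, with a mean of 0.634 FPKM in non-pregnant libraries. Axl reached the mean of 1 FPKM needed for testing only through the pregnant libraries, which limits its test here and below. Its pregnant libraries stood in the order 1, 2, 3 from high to low, the order of the summed Kupffer cell markers there (94.6, 69.9 and 34.9 FPKM). The part of macrophage transcripts in its level was not tested. Without non-pregnant library 2, which was high in endothelial markers, F3, Axl and Tgfb2 passed (limma adjusted p of 0.0449, 0.0409 and 0.0395), as did 1.17% of all genes tested.

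Ccn1 and Ccn2, which encode the secreted matricellular proteins CYR61 and CTGF and are both classic readouts of YAP, had log2 changes of opposite sign, neither past the test. Ccn1 stood at 669.9, 670.2 and 655.9 FPKM across non-pregnant libraries versus 893.9, 749.8 and 968.1 FPKM across pregnant ones. Its groups did not overlap, with a ratio of 1.31 (log2 change 0.38, SE 0.128, adjusted p = 0.312 by limma). Ccn2 stood at 78.8, 115.3 and 98.2 FPKM across non-pregnant libraries versus 90.9, 81.0 and 103.1 FPKM across pregnant ones. Its groups overlapped throughout, with a log2 change of -0.08 (SE 0.151, adjusted p = 0.819 by limma) and a 95% interval from 0.743-fold to 1.21-fold. That sign turned with array weights (0.10) and without non-pregnant library 2 (0.05). Within the pregnant libraries both genes stood in the same order, highest in library 3 and lowest in library 2. Both genes are also induced within minutes by stress and serum, as immediate-early genes are. The summed level of 14 immediate-early and dissociation genes was 4281, 3392 and 4677 FPKM across non-pregnant libraries versus 4565, 3838 and 4751 FPKM across pregnant ones. That sum was lowest in library 2 of each group, as Ccn1 was in pregnant and not in non-pregnant libraries, and its part in the Ccn1 level was not tested.

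**Figure D5:**
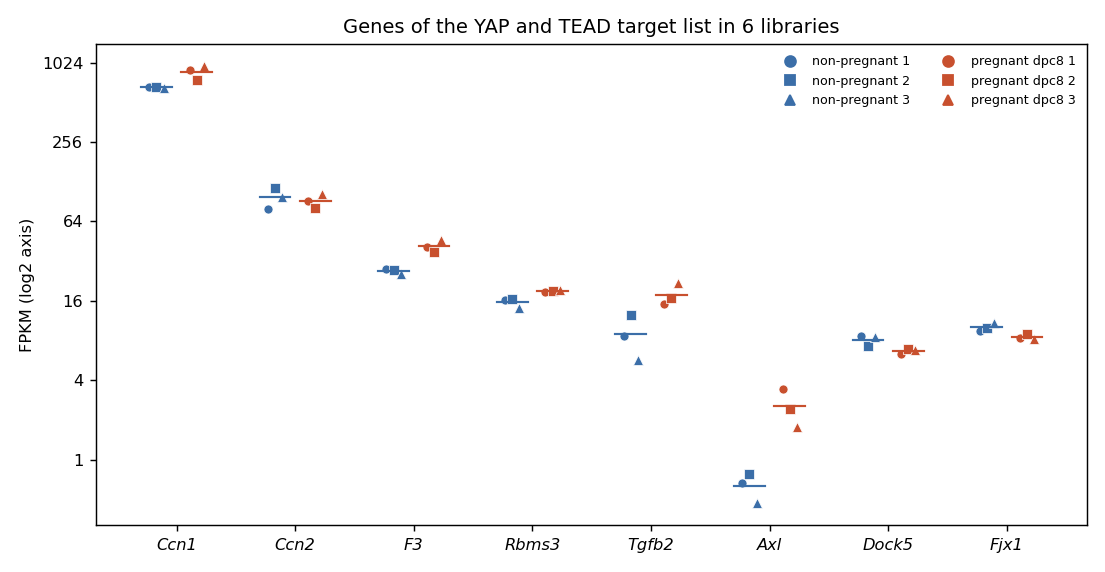
FPKM (log2 axis) of 8 genes of the target list in each library, with colours, shapes and mean lines as for the 10 genes. Ccn1, F3, Rbms3, Tgfb2 and Axl are higher in all pregnant libraries, Dock5 and Fjx1 are lower in all of them, and Ccn2 overlaps.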

How the data were processed

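RNA was sequenced from sorted biliary epithelial cells, 3 libraries per group. The authors deposited FPKM for 21700 genes. Tools listed without roles in the submitters' processing notes were STAR 2.7.9a, DESeq2 1.30.1, cutadapt 3.4 and HTSeq 0.13.5, and the build was mm10. FPKM hides depth, but with GENCODE exon lengths 98.5% of values came out as whole fragments (tolerance 0.01). The divisor that gave them was 25312113 to 35213525 per library, a scaling size and not a count of sequenced fragments. Groups come from the sample titles. The 11412 genes averaging 1 FPKM or more were tested as log2(FPKM + 1), pseudocount 1, with limma 3.58.1 (R 4.3.3, trended empirical Bayes, two-sided) and Benjamini-Hochberg adjustment over all of them, threshold 0.05. The fit was tested on simulated counts that held no outlying library, so that test does not show how the fit behaves on these libraries. Shares of paralogues were compared with exact permutation tests (scipy 1.17.1). The members and lists were chosen with earlier results of these data known. The text names the 10 members, the 4 genes with the smallest p in each list, and some pathway genes and markers. The labels do not say that replicate numbers pair the libraries. Correlations of deviations were 0.068, 0.019 and -0.138 for libraries of the same number and -0.152 to 0.103 for the others, which cannot exclude pairing. The closing section gives the alternatives. Protein sequences were not used here.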

Additional observations from a re-analysis of the deposited data

How the results depend on the processing

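The number of genes passing over the whole table was 10 and depended strongly on the processing: 0 with no filter on low values (2258 at an unadjusted p under 0.05), 5 with robust empirical Bayes, 1 with limma-voom, 1301 with array weights, and 0 to 133 when 1 library was left out, with 133 without non-pregnant library 2, 12 without pregnant library 3 and 0 without each of the other 4. Of the members, 2 passed with array weights and 0 under the other 17 alternatives. Among the 17, median-of-ratios scaling returned the main fit, because the values already stood on that scale, and is no separate check. With 1 library left out, the median log2 change was 0.0333 to 0.127 for the members (lowest without non-pregnant library 3), -0.0599 to -0.0215 for the other Hippo pathway genes and -0.021 to 0.0693 for the target list (highest without non-pregnant library 1). Among the named genes and shares, signs turned for those that follow. Yap1 stood at 0.0036 with upper-quartile scaling, 0.0167 with quantile normalisation and -0.0517 to 0.0057 with a library left out. Lats2 stood at 0.0246 and 0.0305 with those scalings, 0.0662 with array weights, 0.0069 with limma-voom and -0.0398 to 0.023 with a library left out. Ccn2 stood at 0.1014 with array weights and -0.2205 to 0.0512 with a library left out. The same ranges were -0.044 to 0.3107 for Tead2, -0.0634 to 0.1184 for Tead4, -0.0148 to 0.1054 for Stk3 and, in percentage points, -0.838 to 1.33 for the Tead1 share. The cause was not tested. With a replicate block, 13 genes passed (13 higher, 0 lower) and 0 members did. The labels do not say whether the numbers pair the libraries, and no member's call changed. With 3 libraries per group, small differences in the members cannot be shown.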

Other observations

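The ratio of Ccn1 to Ccn2 was looked at after both levels had been seen, so it is a description. On the FPKM scale the non-pregnant libraries gave 8.499, 5.81 and 6.68. The pregnant libraries gave 9.84, 9.25 and 9.39. Every pregnant library lay above every non-pregnant one, and the pregnant libraries were close together (9.49 ± 0.304, against 6.995 ± 1.37, SD, n = 3 each). The two-sided exact permutation p was 0.1, the smallest that 3 against 3 libraries allow. Because the ratio was chosen with the values known, this p and the separation cannot serve as a test of a difference.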
